A study of Mus musculus with 4 samples.

Results

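The SLC25 mitochondrial carriers were taken as every gene whose listed short name starts with Slc25a in both tables, which gave 47 of 22481 symbols. Their RNA was followed in an immunoprecipitation experiment on mouse brown adipose tissue, the fat that oxidises fuel to make heat. RNA was recovered with an antibody against FAM172A (IP) or with control immunoglobulin (IgG), rRNA was depleted, and directional libraries were sequenced, to look for transcripts bound by FAM172A. There were 4 libraries in 2 pairs, each pair with 1 IP and 1 IgG library. The titles call all of them WT, and the labels give no age, sex or strain. A cold protocol is given for the pair titled cold and none for the pair titled WT4. The columns of the table called the first pair here carry no title beyond IP and IgG, and the cold libraries were placed there by elimination. The labels do not state whether different animals gave the 2 pairs. No library of RNA before precipitation was analysed here, so a level below is that of a transcript in recovered RNA.

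SLC25 proteins sit mostly in the inner mitochondrial membrane, are built from repeats of a common module, and move metabolites, nucleotides, cofactors and ions between the cytosol and the matrix. Most exchange a molecule on one face for another on the opposite face. UCP1, the uncoupling protein that lets brown fat mitochondria turn the proton gradient into heat, belongs to the same protein family under another symbol. In brown fat, carriers bring in acylcarnitines for oxidation, export ATP, import phosphate, and take up branched-chain amino acids.

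The repeat shows in the coding sequence. In GENCODE vM21 transcripts (GRCm38), the carrier signature of proline, any residue, aspartate or glutamate, 2 residues of any kind, and lysine or arginine was searched in every coding frame. It occurred 3 or more times in 27 of 47 members, 2 times in 12, once in 5, and not at all in Slc25a51, Slc25a46 and Slc25a53. The stretches of 36 coding bases below run 5′ to 3′ on the coding strand, with the signature's codons in capitals. The first 6 lines set the repeats of both abundant ADP/ATP exchangers side by side, since both are abundant and close relatives. The rest give the first signature of abundant carriers of phosphate, citrate, acylcarnitine, glutathione and coenzyme A.
Slc25a4, the first: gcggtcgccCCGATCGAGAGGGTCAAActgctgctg
Slc25a4, the second: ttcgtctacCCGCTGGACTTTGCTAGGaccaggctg
Slc25a4, the third: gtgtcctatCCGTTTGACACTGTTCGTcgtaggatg
Slc25a5, the first: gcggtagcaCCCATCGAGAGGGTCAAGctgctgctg
Slc25a5, the second: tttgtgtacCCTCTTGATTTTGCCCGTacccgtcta
Slc25a5, the third: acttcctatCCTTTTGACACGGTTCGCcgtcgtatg
Slc25a3, phosphate: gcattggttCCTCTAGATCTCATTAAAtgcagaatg
Slc25a1, citrate: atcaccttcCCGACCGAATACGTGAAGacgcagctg
Slc25a20, acylcarnitine: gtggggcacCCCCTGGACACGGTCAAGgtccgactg
Slc25a39, glutathione: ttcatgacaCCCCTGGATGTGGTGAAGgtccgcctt
Slc25a42, coenzyme A: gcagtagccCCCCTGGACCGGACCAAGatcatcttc
The coding sequences of Slc25a4 and Slc25a5 were identical at 695 of 897 aligned bases (77.5%). Other close relatives were less alike or about as alike: 72.8% for the mitoferrins Slc25a28 and Slc25a37, 1450 of 2014 bases for the aspartate/glutamate carriers Slc25a12 and Slc25a13, 66.3% for the pyrimidine nucleotide carriers Slc25a33 and Slc25a36, and 61.1% for the glutathione carriers Slc25a39 and Slc25a40. Stretches nearer to identity lay in transcripts of other GENCODE genes: 10 members had a stretch of at least 150 bases at 95% identity or more in a transcript of another gene. For Slc25a5 this was up to 900 bases in Gm5529 and Gm5560, for Slc25a40 up to 724 bases in Gm5066, and for Slc25a51 up to 161 bases of its 4433-base transcript in 15 genes. Counts of those members, and of the 12 members that the tables place at a locus shared with another gene, are uncertain to that extent.

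Depth was 6633653 fragments for the first IP library, 5587298 for the first IgG library, 1631880 for WT4 IP and 360370 for WT4 IgG. Of all genes tested, 30.0%, 20.1%, 3.13% and 43.0% were listed at 0 in the first IP, first IgG, WT4 IP and WT4 IgG libraries. Values of a gene are given below in that order. None of the 10 brown adipocyte markers was at 0 in any library, and their summed FPKM (fragments per kilobase of transcript per 1000000 fragments, as deposited) was 11797, 11841, 6299 and 2288. Skeletal muscle markers were also present, at summed FPKM of 1576, 1332, 285 and 442.

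SLC25 transcripts made up a small share of the recovered RNA in IP and in IgG. They took 38023, 28565, 4364 and 844 fragments, which was 0.573% (95% exact Clopper-Pearson interval 0.568 to 0.579), 0.511% (0.505 to 0.517), 0.267% (0.260 to 0.276) and 0.234% (0.219 to 0.251) of each library. The share differed more between the pairs than between IP and IgG of a pair. Intervals cover the counting error of fragments only and hold no spread between samples. Reads carried no molecular identifiers and cannot be counted as separate molecules, so the intervals may be too narrow. Summed FPKM of the family was 2610, 2258, 1126 and 824. Ucp1 by itself stood at 2880, 2792, 865 and 470 FPKM, so that it exceeded all SLC25 members together in both libraries of the first pair and stayed below them in both of the WT4 pair. The tables were normalized separately, so this difference between the pairs was not tested, and in bulk tissue fewer cells of a type and less RNA per cell cannot be told apart.

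Of the 47 members, 25 had fragments in all 4 libraries. Members with fragments numbered 34, 37, 42 and 31, and those of at least 10 FPKM numbered 25, 25, 22 and 20. Slc25a31 (the ADP/ATP exchanger known from testis), Slc25a41 (an ATP-Mg/phosphate carrier) and Slc25a43 were listed at 0 in all 4 libraries. A further 6 members were listed at 0 in both libraries of the first pair: Slc25a2 and Slc25a18, carriers of ornithine and glutamate, Slc25a13 (citrin), Slc25a14 (UCP5), Slc25a21 (the oxodicarboxylate carrier) and Slc25a54. The 5 most abundant members took 61.5%, 53.1%, 58.8% and 54.1% of the family's FPKM, and Slc25a51 was among those 5 in every library.

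**Figure D1:**
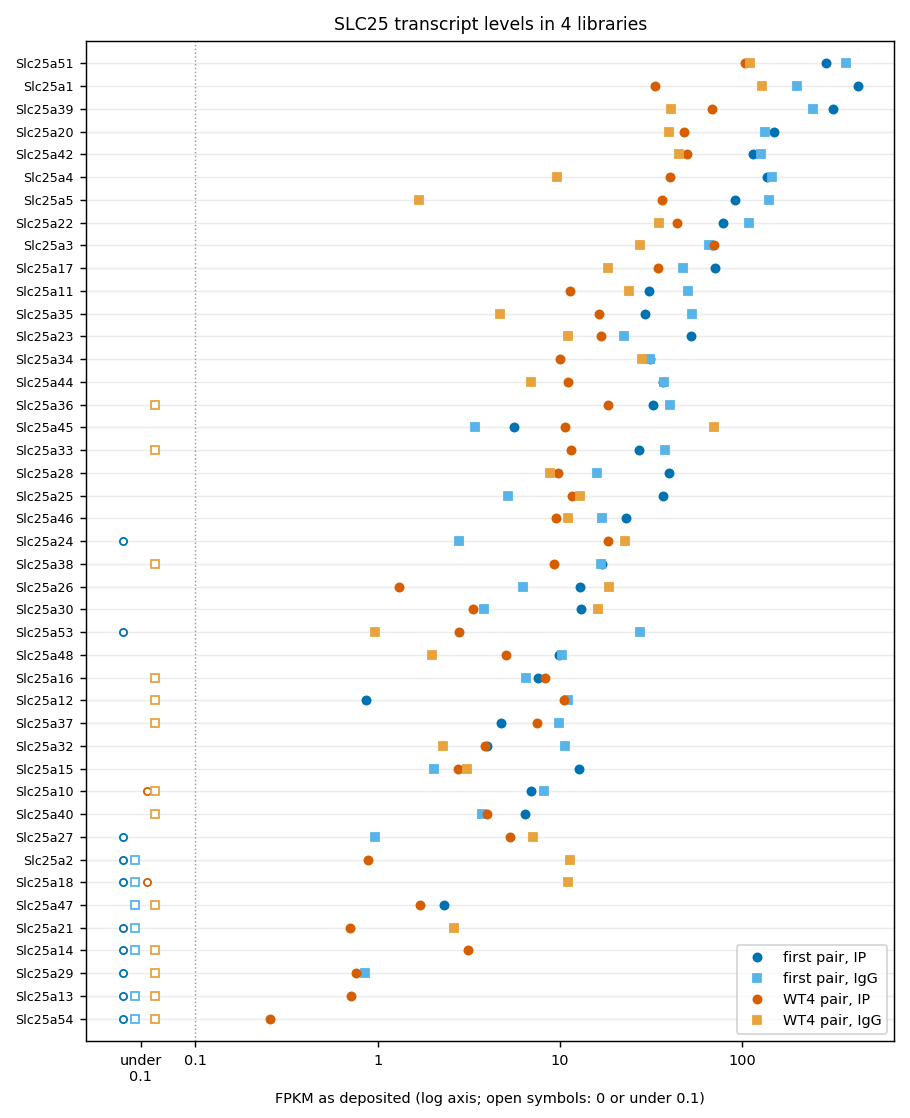
FPKM as deposited (log axis) of 43 SLC25 members with fragments in at least 1 library, ordered by mean FPKM, with 1 symbol per library and open symbols for values of 0 or under 0.1. The 9 members at the top reached at least 65.8 FPKM in the first pair's libraries, the WT4 IgG library held Slc25a5 at 1.69 FPKM, and from Slc25a36 down open symbols mark members missing from a library.

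By transported substrate, carriers of cofactors and of nucleotides other than ADP and ATP had the highest summed FPKM in every library: 980, 883, 602 and 286. Carriers of amino acids and glutathione stood at 467, 427, 152 and 108, those of adenine nucleotides and phosphate at 385, 383, 194 and 85.4, and those of di- and tricarboxylates at 468, 259, 45.5 and 156. The acylcarnitine carrier gave 150, 133, 47.8 and 39.7. Mitoferrins summed to 44.6, 25.9, 17.2 and 8.85, the outer membrane protein Slc25a46 to 23.1, 17.0, 9.52 and 11.1, and Slc25a14, Slc25a27 and Slc25a30, relatives of the uncoupling proteins, to 12.98, 4.80, 11.8 and 23.3. Members whose substrate is not settled summed to 78.1, 126, 46.6 and 106. In the first IgG library 27.6 of this was Slc25a53, on 19 fragments. In the WT4 IgG library 70.1 was Slc25a45, on 26 fragments at a locus of 39 listed genes. The order of the groups after the first was not the same in every library. Each large sum rests on few genes.

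**Figure D2:**
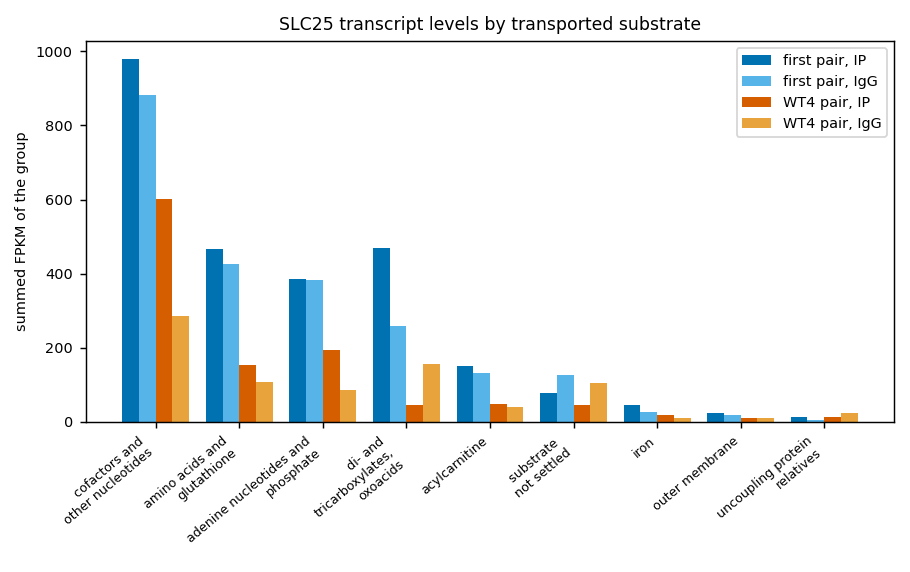
Summed FPKM (linear axis from 0) of the SLC25 members grouped by transported substrate, with 1 bar per library and no error bar because each bar is 1 library. Cofactor carriers are highest in all 4 libraries, and the di- and tricarboxylate carriers stand at 468 in IP of the first pair against 45.5 in IP of the WT4 pair.

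Among cofactor carriers, Slc25a51 (ENSMUSG00000045973, chromosome 4, 45395923 to 45408766, minus strand), the NAD carrier, had the most fragments of the family in the first pair's libraries, with 8139, 5514, 585 and 108, or 287, 369, 104 and 110 FPKM. Its fold of IP over IgG on scaled fragments was 1.26 (95% counting interval 1.21 to 1.30) and 1.46 (1.19 to 1.81), but in FPKM it was lower in IP in both pairs, with log2 ratios of -0.36 and -0.09. For Slc25a51 the direction therefore depends on which of the deposited columns is read.

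Slc25a42, which exchanges coenzyme A for adenine nucleotides, gave 115, 127, 49.8 and 44.9 FPKM on 2752, 2194, 321 and 70 fragments, for folds of 1.07 (1.01 to 1.13) and 1.24 (0.952 to 1.63). Slc25a17, a peroxisomal cofactor carrier, gave 70.7, 47.1, 34.7 and 18.4 FPKM, for folds of 1.503 (1.35 to 1.67) and 1.94 (1.22 to 3.22). Both sat within the 2-fold line in both pairs. The pyrimidine nucleotide carriers Slc25a33 and Slc25a36 had 429, 503, 58 and 0 fragments, and 373, 281, 43 and 0. Against a floor of 3 fragments in the WT4 IgG library their WT4 folds were 5.21 (lower limit 4.10) and 3.86 (lower limit 3.01). In the first pair their log2 ratios were -0.46 and 0.17. Slc25a16, linked to coenzyme A, had 206, 140, 19 and 0 fragments. Its WT4 fold against that floor was 1.71 (lower limit 1.26). Slc25a26, the S-adenosylmethionine carrier, had 206, 85, 7 and 25 fragments and went opposite ways, with log2 ratios of 0.99 and -3.52. Slc25a32, the folate and FAD carrier, had 101, 231, 32 and 5.

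For adenine nucleotides and phosphate, the pairs differed. Slc25a4 (ENSMUSG00000031633, chromosome 8, 46206797 to 46211284, minus strand) encodes ANT1, which exports ATP for ADP, and had 2199, 1998, 201 and 13 fragments, or 137, 146, 40.1 and 9.63 FPKM. Its fold was 0.937 (0.881 to 0.996) in the first pair and 4.17 (2.38 to 7.96) in the WT4 pair. Slc25a5 (ENSMUSG00000016319, chromosome X, 36795651 to 36798807, plus strand) encodes its relative ANT2, and had 826, 1124, 109 and 1 fragments, or 90.9, 141, 36.2 and 1.69 FPKM. Its fold was 0.625 (0.571 to 0.685) and then 29.4 (5.16 to 1171), the second resting on 1 IgG fragment. Both exchangers were thus at or below IgG in the deeper pair and above it in the shallower pair. Slc25a3, which imports phosphate and copper, had 1022, 789, 193 and 23 fragments (68.2, 65.8, 70.5 and 27.4 FPKM), for folds of 1.10 (1.004 to 1.21) and 2.26 (1.46 to 3.65). Together these 3 genes gave 11.3%, 15.6%, 13.03% and 4.70% of the family's FPKM, lowest in the WT4 IgG library. Skeletal muscle, where ANT1 is abundant, was represented by 8 markers of which none was at 0, with summed FPKM of 1576 and 285 in the IP libraries and 1332 and 442 in the IgG libraries, and their part in these ratios was not tested.

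The calcium-regulated ATP-Mg/phosphate carriers were lower and less alike. Slc25a24 (ENSMUSG00000040322, chromosome 3, 109123149 to 109168457, plus strand) had 0, 54, 34 and 23 fragments and was the 1 member below IgG by 2-fold or more in each pair. Against a floor of 3 fragments in the first IP library it was 21.1-fold lower there, and the upper limit of its fold was 0.060. In the WT4 pair its fold was 0.398 (0.228 to 0.708). In FPKM its WT4 log2 ratio was only -0.29. Across both pairs Slc25a24 did not pass the test (edgeR, log2 fold change -3.90 ± 3.40 SE, unadjusted p = 0.251). Slc25a23 had 544, 548, 104 and 28 fragments and log2 ratios of -0.24 and 0.00, but its FPKM of 52.7, 22.6, 16.9 and 11.1 gave 1.19 and 0.56. Slc25a25 had 68, 80, 37 and 34 fragments, at -0.43 and -1.73, and its FPKM of 36.8, 5.18, 11.7 and 12.8 gave the opposite sign in the first pair. Slc25a54 had 1 fragment, in the WT4 IP library.

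Among carriers of di- and tricarboxylates, Slc25a1 showed the pairs at odds. Slc25a1 (ENSMUSG00000003528, chromosome 16, 17925223 to 17928219, minus strand) exports citrate, from which cytosolic acetyl-CoA for fatty acid synthesis is made. It had 2644, 1370, 106 and 59 fragments, or 431, 200, 33.4 and 129 FPKM, and was the highest member in both the first IP and the WT4 IgG library. Its fold was 1.64 (1.54 to 1.75) in the first pair and 0.484 (0.349 to 0.678) in the WT4 pair. Slc25a11, the malate/2-oxoglutarate carrier, had 435, 348, 51 and 28 fragments and 30.8, 50.3, 11.4 and 23.8 FPKM, for folds of 1.06 (0.922 to 1.23) and 0.491 (0.304 to 0.809). Both were 2-fold lower in the WT4 IP library while most abundant carriers were not. Slc25a10, the dicarboxylate carrier, had 102 and 116 fragments in the first pair and 0 in both WT4 libraries, and Slc25a21 had 0, 0, 4 and 5.

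Carriers of amino acids and glutathione were led by Slc25a39 (ENSMUSG00000018677, chromosome 11, 102402985 to 102407946, minus strand), which imports glutathione. It had 4032, 2499, 183 and 26 fragments, or 315, 246, 68.3 and 40.7 FPKM. Its fold was 1.37 (1.31 to 1.44) and 1.897 (1.25 to 2.98), above 1 in both pairs and under 2 in both. Its relative Slc25a40 was far lower, with 141, 70, 28 and 0 fragments. Slc25a22, a glutamate carrier, had 1178, 1295, 207 and 17 fragments and 78.6, 109, 44.0 and 34.9 FPKM, for folds of 0.774 (0.715 to 0.838) and 3.28 (2.001 to 5.74), while in FPKM its WT4 log2 ratio was only 0.33, under the 2-fold line that the ADP/ATP exchangers pass on both measures there. Slc25a44, the branched-chain amino acid carrier described in brown fat, had 1147, 979, 108 and 18 fragments (36.7, 37.3, 11.1 and 6.96 FPKM), for folds of 0.997 (0.915 to 1.09) and 1.62 (0.976 to 2.83), so neither interval excluded 1.

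Slc25a38, the glycine carrier that erythroid cells need for haem, had 223, 118, 44 and 0 fragments. Slc25a12 (aralar), which carries aspartate and glutamate, had 37, 66, 40 and 0, and Slc25a13 had 5 fragments in the WT4 IP library only. Slc25a15, the ornithine carrier of the urea cycle, had 383, 52, 27 and 8 fragments, a fold of 6.27 (4.68 to 8.54) in the first pair against 0.910 (0.402 to 2.32) in the WT4 pair. The WT4 interval of Slc25a15 included 1. Slc25a2, a relative of Slc25a15, had 0, 0, 3 and 10 fragments, Slc25a18 had 10 in the WT4 IgG library only, and Slc25a29, a carrier of basic amino acids, had 0, 12, 4 and 0.

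Slc25a20 (ENSMUSG00000032602, chromosome 9, 108662088 to 108684641, plus strand) exchanges acylcarnitine for carnitine and so admits long-chain fatty acids to oxidation. It had 2225, 1673, 225 and 49 fragments, or 150, 133, 47.8 and 39.7 FPKM. Its fold was 1.13 (1.06 to 1.21) and 1.24 (0.905 to 1.72), close to equal recovery with the antibody and with IgG. Cpt1b and Cpt2, the enzymes on either side of that step, had log2 ratios of -0.32 and 0.24, and of 0.44 and -0.81.

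The mitoferrins import iron for haem and iron-sulphur clusters. Slc25a28 (mitoferrin 2) had 492, 168, 38 and 9 fragments and 39.9, 16.02, 9.75 and 8.85 FPKM, a fold of 2.49 (2.09 to 2.99) in the first pair against 1.14 (0.541 to 2.68) in the WT4 pair. Slc25a37 (mitoferrin 1, the erythroid form) had 149, 446, 89 and 0 fragments, a fold of 0.284 (0.235 to 0.343) in the first pair. Its WT4 fold against a floor of 3 fragments was 7.997 (lower limit 6.37). The 7 erythroid markers had a summed FPKM of 247 and 84.4 in IP and 425 and 17.7 in IgG. Alas2, the erythroid haem synthesis enzyme, had 107, 240, 13 and 0 fragments and Hbb-bs, a haemoglobin chain, 184, 514, 41 and 0. Both of these and Hba-a2 were at 0 in the WT4 IgG library. Slc4a1, the red cell anion exchanger, went the other way in each pair, with 55, 23, 17 and 13 fragments and log2 ratios of 0.87 and -1.43, and Hbb-bt stood at -0.27 and 0.10. The part of erythroid RNA in the values of Slc25a37 and Slc25a38 was not tested.

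The remaining members were mostly low. Slc25a46, an outer membrane protein that shapes mitochondria, had 890, 559, 119 and 37 fragments and log2 ratios of 0.43 and -0.20. Slc25a30 and Slc25a27, relatives of the uncoupling proteins, had 183, 46, 15 and 19 fragments and 0, 19, 40 and 14. The fold of Slc25a30 was 3.39 (2.44 to 4.79) in the first pair against 0.213 (0.101 to 0.442) in the WT4 pair, and Slc25a14 had 5 fragments in the WT4 IP library only. Of members with no settled substrate, Slc25a35 had 937, 1207, 111 and 6 fragments and split as Slc25a4 did, at 0.661-fold (0.606 to 0.720) and 4.99-fold (2.22 to 13.9). Slc25a34 had 712, 613, 74 and 55 fragments and stood at 0.988-fold (0.886 to 1.10) and 0.363-fold (0.252 to 0.524). Slc25a48 had 290, 257, 48 and 5 fragments and Slc25a53 had 0, 19, 22 and 3. Slc25a45 had 92, 48, 45 and 26 at a locus of 39 listed genes, which makes its value uncertain.

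Slc25a47 was the 1 member above IgG by 2-fold or more in each pair, and it rested on few fragments. Slc25a47 (ENSMUSG00000048856, chromosome 12, 108836046 to 108856815, plus strand), known mainly from liver, had 30, 0, 7 and 0 fragments, or 2.32, 0, 1.71 and 0 FPKM. Its log2 ratios on scaled CPM + 1 were 2.47 and 2.51. Against a floor of 3 fragments in the IgG library its first-pair fold was at least 8.51, while for the WT4 pair the 7 fragments bound no increase. Of 5 hepatocyte markers, Alb had 151, 62, 0 and 0 fragments, Ttr 21, 29, 10 and 22, and Apoa1 11, 11, 1 and 0. Of the 3 tested, 1 had a ratio above 0 in the first pair and 2 below. The list's summed FPKM was 12.8 and 3.73 in IP and 11.2 and 32.1 in IgG, with Fgb at 0 outside the first IP library. Their part was not tested.

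To compare members with all genes, a scaled CPM was used: the deposited scaled count over the mean total of its pair, times 1000000, with 1 added before the log2 ratio. Genes with a mean of at least 1 were kept, 16217 in all and 41 of the 47 members. In the first pair 4 of 41 members (9.76%) had an IP level of 2-fold IgG or more, against 13.3% of all genes tested, and 6 (14.6%) at least 2-fold lower, against 26.9%. The higher members were Slc25a15, Slc25a28, Slc25a30 and Slc25a47. The lower ones were Slc25a24, Slc25a27, Slc25a29, Slc25a32, Slc25a37 and Slc25a53, of which 4 were at 0 in the IP library. Both shares were below those of all genes on this scale, but in FPKM 7 of 41 members were higher, against 12.9% of all genes, and 4 lower, against 22.9%.

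In the WT4 pair 16 of 41 members (39.0%) were at least 2-fold higher in IP, against 51.6% of all genes, and 11 (26.8%) at least 2-fold lower, against 19.3%. Of the 16 higher members, 9 had 0 fragments in the IgG library. Many other transcripts were absent from that library: 646 of the 2435 genes whose lowest value elsewhere was at least 20 and under 50 scaled CPM were at 0 in it (26.5%), and 4 of the 488 over 200 (0.8197%). The split of members depended on scaling, from 16 higher and 11 lower to 19 and 8 with TMM factors (54.4% and 16.3% of all genes), and to 10 higher and 16 lower with each pair centred on the median of all genes (39.9% and 36.9%). That median log2 ratio was -0.03 for the first pair, and 1.17 for the WT4 pair (1.35 with TMM factors and 0.90 with total fragments). Members had medians of 0.00 and 0.68, the former set by genes listed at 0 in both libraries, and 15 of the 41 lay above the median of all genes in the WT4 pair.

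In both pairs, 1 member was at least 2-fold higher (7.19% of all genes tested were) and 1 at least 2-fold lower (5.25%). On scaled CPM + 1, Slc25a30, Slc25a37 and Slc25a29 were 2-fold in opposite directions in the pairs. In FPKM the first-pair log2 ratio of Slc25a37 was -0.93, within the 2-fold line. The 4 fragments of Slc25a29 against 0 in the WT4 pair bound no increase.

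**Figure D3:**
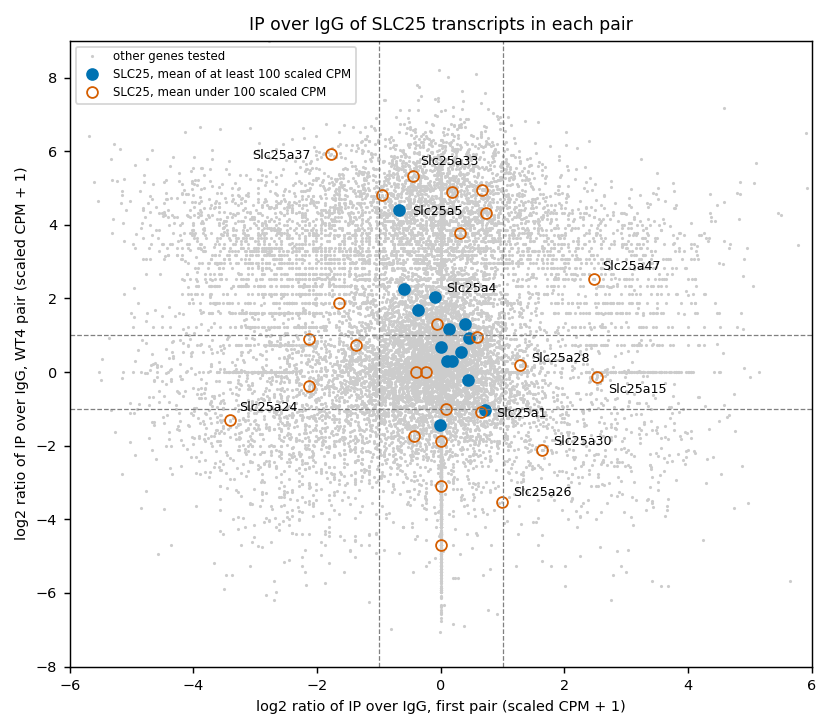
Log2 ratio of IP over IgG in the first pair (x axis) and in the WT4 pair (y axis), on scaled CPM + 1, for the 41 SLC25 members tested (filled, mean of at least 100 scaled CPM; open, below that) over all other genes tested (grey), with dashed lines at 2-fold. The 14 abundant members lie between -0.67 and 0.71 in the first pair but spread from -1.45 to 4.41 in the WT4 pair, where centring on the median of all genes would lower each point by 1.17.

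Abundant members gave the most precise values. All 14 members with a mean of at least 100 scaled CPM lay within 2-fold in the first pair, where 2.73% of the 1906 genes of that level were higher and 8.08% lower. In the WT4 pair 6 of the 14 were at least 2-fold higher, among them Slc25a4 and Slc25a5, and 2 lower (Slc25a1 and Slc25a34), against 30.0% and 5.51% of genes of that level. On scaled CPM + 1, Slc25a51, Slc25a39, Slc25a20, Slc25a42, Slc25a3 and Slc25a17 had ratios above 0 in both pairs. Each lies below 0 in the WT4 pair once that pair is centred on the median of all genes. In FPKM, Slc25a51 was below 0 in both pairs (-0.36 and -0.09) and Slc25a42 in the first pair (-0.13). The ranges of neighbours in the order of the 12 highest by mean FPKM overlapped over the 4 libraries, so the order itself is loose.

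**Figure D4:**
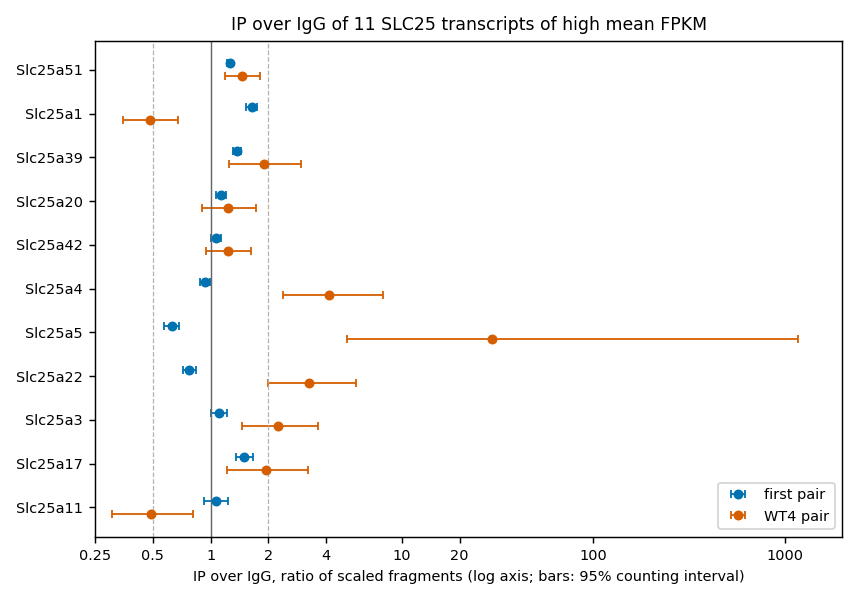
IP over IgG (log axis) of 11 SLC25 members of high mean FPKM, as the ratio of scaled fragments in the first pair (blue) and the WT4 pair (orange), with bars for the 95% counting interval, which holds no spread between samples. First-pair folds run from 0.625 (Slc25a5) to 1.64 (Slc25a1), and the WT4 interval of Slc25a5 reaches from 5.16 to 1171 because it rests on 1 IgG fragment.

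Over both pairs, no SLC25 member passed the test for a difference between IP and IgG. By edgeR's quasi-likelihood test with the pair as a block and Benjamini-Hochberg adjustment over all 16217 genes, 1 gene was higher in IP (0.00617%) and 0 lower (0%), with 139 and 96 genes at an unadjusted p under 0.05, and DESeq2 called 3 and 0. Of the 41 members, 0 passed and 0 had an unadjusted p under 0.05. Slc25a4 stood at a log2 fold change of 0.92 ± 0.67 SE (edgeR, unadjusted p = 0.174, adjusted p = 1) and Slc25a5 at 1.39 ± 1.04, each higher in 1 of 2 pairs. Standard errors of the members ran from 0.54 to 15.6 with a median of 1.87, and for the abundant members from 0.54 to 1.04, so that a log2 difference of 1 was under 2 SE for each member. With 1 residual degree of freedom the test used a spread wholly pooled across genes, so a member's own spread between the pairs did not enter it. The p-values measure only pooled spread between these samples, which may be technical.

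Genes of the same protein family under other symbols did not pass the test either. Ucp1 had 38953, 32123, 3708 and 527 fragments and log2 ratios of 0.05 and 0.92. Ucp2 stood at 0.10 and 0.02, Ucp3 at 0.21 and 1.19, and the outer membrane insertases Mtch1 and Mtch2 at 0.38 and 2.77 and at 0.26 and -0.57. Each had an adjusted p of 1 by edgeR. Other mitochondrial transport genes tested numbered 25, such as the pyruvate carrier subunits, the calcium uniporter and the porins. For the first pair, 0 of these 25 passed the 2-fold line upwards (13.3% of all genes did) and 3 downwards (26.9%). For the WT4 pair, 14 passed it upwards (51.6% of all genes) and 2 downwards (19.3%). Median log2 ratios of the 25 were 0.12 and 1.44, beside -0.03 and 1.17 for all genes tested. The WT4 IgG library held 0 fragments of 7 of the 25. Sfxn3 alone, a sideroflexin, was 2-fold the same way (lower) in both pairs, where 5.25% of all genes were. Of 5 endothelial markers, 4 lay 2-fold or more below IgG in the first pair, where 26.9% of all genes did. In the WT4 pair 3 lay 2-fold or more above IgG and 1 below, against 51.6% and 19.3% of all genes. Their summed FPKM was 169 and 302 in IP and 347 and 258 in IgG, with none at 0. The part of these markers in the ratios of SLC25 members was not tested.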

How the data were processed

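RNA immunoprecipitation libraries of mouse brown adipose tissue (2 IP, 2 IgG) were analysed from 1 table per pair. The submitters' processing notes name HISAT2, Cuffdiff, Cufflinks, cutadapt 1.9.3 and the mm10 build; roles, order and annotation release are not given in the sources used here. The authors deposited FPKM and scaled estimated counts for 22564 rows (22481 symbols, rows of 1 symbol summed), of which 5877 share a locus with another row. Estimated counts were whole multiples (within 0.05) of a step of 0.926, 1.09, 0.731 and 2.71 for 94.4% to 98.0% of values above 0 in the first IP, first IgG, WT4 IP and WT4 IgG libraries. Dividing by the step and rounding gave fragments.

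Scaled CPM is the deposited scaled count over the mean scaled total of its pair, times 1000000. Log2 ratios were taken within a pair after adding 1, which understates changes of low genes. The filter was a mean of at least 1 scaled CPM, and the line for counts was 2-fold. A pair with 1 library per fraction allows no test. Fold intervals turn the exact 95% Clopper-Pearson interval of the IP share of a gene's recovered fragments into a ratio, which is then scaled by library size. Bounds put a floor of 3 fragments in place of 0 and leave out the counting error of the other library. The limit printed beside such a fold comes from the exact 95% interval. Across pairs, edgeR 4.0.16 (R 4.3.3) was fitted with the pair as a block and library sizes from the authors' scaling. The SE printed for edgeR is the absolute log2 fold change over the square root of the test's F statistic. limma 3.58.1 and DESeq2 1.42.0, TMM factors, total fragments, other pseudocounts and filters, FPKM and left-out libraries were alternatives. Fits with a library left out had no block. The edgeR code was run on simulated data with no difference between the pairs, so that run does not cover pairs that differ as these do. IP and IgG deviations of a pair correlated (r = 0.262 over 16217 genes; 0.434 over the 1906 of at least 100 scaled CPM); the pairing comes from the titles and from the tables.

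Coordinates and coding sequences are from GENCODE vM21 (GRCm38, the assembly mm10 names), matched by gene ID. Near-identical stretches were found with blastn 2.17.0. The members, gene lists and tests were chosen with earlier results of these data known. A few genes that these rules take are not reported here. Of the rest, all members are accounted for; those described with values in every library were the 12 highest by mean FPKM, any past the 2-fold line with equal direction in both pairs or past the test, any at 0 in a first-pair library with at least 20 fragments in its partner, and up to 2 per substrate group by mean FPKM. Other members and genes beside Ucp1 to Ucp3, Mtch1 and Mtch2 were named after their values were seen. Slc25a52 and Adgre1, on the lists, were not analysed here.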

Additional observations from a re-analysis of the deposited data

How the results depend on the processing

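No SLC25 member passed the test under any fit run. Among all genes, the count higher in IP went from 1 to 0 with no replicate block and with limma on either unit, and to 3 with DESeq2. The count lower went from 0 to 1 with total fragments. Fits with a library left out also dropped the pair as a block, so they set libraries of different pairs against each other. Without the first IgG library, Slc25a5 and Slc25a4 stood at log2 fold changes of 5.29 and 2.85, and without the WT4 IgG library at -1.01 and -0.60. In these fits the lone IgG library was assumed to vary like the IP libraries. The effect of the library and that of the missing block were not told apart. In DESeq2 1 member, Slc25a24, had an unadjusted p under 0.05 (0.0442), beside 255 genes higher and 355 lower.

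The share of all genes under the same setting is in parentheses. Centring each pair gave 10 higher members in the WT4 pair (39.9%), 2 lower in both pairs (9.58%) and a WT4 median of -0.49. FPKM gave 7 higher in the first pair (12.9%) and 0 lower in both (4.24%). A pseudocount of 5 gave 3 lower in the first pair (16.8%) and 0 higher in both (3.75%), and a filter at a mean of 10 scaled CPM also gave 0 higher in both (4.10%). With the 25 members that had fragments in all 4 libraries, chosen after seeing the data, 1 was lower in the first pair (18.4%), 7 were higher (24.3%) and 7 lower (21.2%) in the WT4 pair, and 0 were higher (1.51%) and 0 lower (4.66%) in both; the median was 0.31 in the WT4 pair. The cause of these shifts was not tested, other than the smaller number of members in the last 2 settings. Of 229 values of the 29 named members, 24 moved by more than the SD of the pairs, which is wide where the pairs disagree, and 12 changed sign, in 6 members by a setting other than centring. Without the WT4 IgG library, 11 of the 12 highest members by mean FPKM were the same genes. Depth limits the WT4 IgG values most.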
